A study of Mus musculus with 6 samples.

Results

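Stem cell surface and adhesion markers are described here as 10 genes, Itga6, Itgb1, Cd9, Thy1, Cdh1, Epcam, Tspan8, Cd82, Cxcr4 and Shisa6, taken by name from the 24495 gene rows of the deposited count table. All 10 had a row, and 9 passed a filter on low counts that kept 14855 genes for testing. Tspan8 was the exception. RNA was measured by poly(A) sequencing in a culture of mouse spermatogonial stem cells, which found the male germ line, grown from DBA2 testes of postnatal days 5 to 8. One group had 2 uM EPZ5676 (pinometostat), which blocks the histone H3 lysine 79 methyltransferase DOT1L, for 2 weeks. The other had 0.2% ethanol for the same time, and each group had 3 libraries, described in the series' design text as biological triplicates. Strain, age and culture were the same in both groups, and no label gives a genetic change, the number of animals pooled or the cells beneath the cultures. The question was whether the transcripts by which these stem cells are recognised and sorted differ when DOT1L is inhibited.

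Spermatogonial stem cells sit on the basement membrane of the seminiferous tubule. An integrin made of the alpha 6 chain (Itga6) and the beta 1 chain (Itgb1) binds laminin there, and both chains are used to enrich stem cells by antibody. Tetraspanins (Cd9, Tspan8, Cd82) are proteins with 4 membrane spans that gather integrins and other receptors into membrane patches. Cdh1 (E-cadherin) and Epcam hold neighbouring cells together, Thy1 is a surface protein with a lipid anchor, Cxcr4 is the receptor of the chemokine Cxcl12, and Shisa6 is a membrane protein reported in mouse spermatogonia with stem cell capacity.

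No marker passed the test between EPZ5676 and ethanol. The EPZ5676 libraries lay below all ethanol libraries for Cd9 and Cdh1 and above them for Shisa6, and the groups overlapped for the other 7. Itga6 and Epcam had nearly the same mean in both groups, and Epcam varied with the replicate number instead. The main test was the quasi-likelihood test of edgeR without pairing, with p-values adjusted over all 14855 genes (Benjamini-Hochberg). By it, 0 of the 9 tested markers had an adjusted p under 0.05, beside a background of 0% of all genes. DESeq2 and limma-voom, without pairing, also called 0 of the 9, where they called 50 and 0 of all 14855 genes. Unadjusted p-values under 0.05 were found for 3 of the 9 (Cd9, Cdh1 and Shisa6), beside 7.41% of all genes tested (3.84% higher and 3.57% lower). Groups that did not overlap were found for the same 3, beside 14.9% of all genes. Shisa6 passed the filter only through the EPZ5676 group, so its place in both counts is no support for a difference.

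Both replicate 2 libraries stood apart from the other 4. Gene counts totalled 19866337 to 54645903 in EPZ5676 libraries and 17784332 to 21046473 in ethanol libraries, with EPZ5676 replicate 2 the deepest. On the first principal component, with 48.7% of the variance, EPZ5676 replicate 2 scored 25.1 and ethanol replicate 2 scored 39.6, and the others -18.0 to -13.5. All 16 germ cell markers had counts in every library, and their summed level was 4881 to 5097 TMM-scaled counts per library size (CPM) with EPZ5676 and 4637 to 5154 CPM under ethanol. Log2 fold changes of these 16 ran from -0.27 to 0.75, with 9 positive and 7 negative, and the main test called 0, as of all genes. Dazl alone made up a large part of the sum, at 1769 ± 84.6 CPM under EPZ5676 and 1695 ± 27.5 CPM under ethanol (SD, n = 3 each). Ddx4, a germ cell RNA helicase, had 649 ± 21.1 CPM under EPZ5676 and 663 ± 21.6 CPM under ethanol (SD, n = 3 each). The summed level of 18 fibroblast markers was 1497, 1972 and 1616 CPM in EPZ5676 replicates 1 to 3 and 1466, 2575 and 1602 CPM in ethanol replicates 1 to 3, highest in ethanol replicate 2. Sertoli cell markers summed to 26.4 to 36.6 CPM under EPZ5676 and 28.5 to 43.9 CPM under ethanol, and macrophage markers to 11.4 to 17.1 CPM under EPZ5676 and 12.6 to 17.4 CPM under ethanol. Among the Sertoli cell markers Fshr, the FSH receptor, was close to 0, at 0.0121 ± 0.0210 CPM under EPZ5676 and 0.0158 ± 0.0274 CPM under ethanol (SD, n = 3 each). Other genes of that list made up its summed level. The transcript of Dot1l, the target of EPZ5676, had 243 ± 40.4 CPM under EPZ5676 and 202 ± 3.92 CPM under ethanol (SD, n = 3 each; edgeR adjusted p of 0.668), which checks no label, since the compound acts on the enzyme. In bulk libraries such as these, fewer cells of a type and less RNA per cell cannot be told apart.

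The markers spanned a wide range of levels. On the scale of CPM per kilobase of exon, which sets genes of different length side by side, Epcam averaged 134 over the 6 libraries (103 to 166), Itgb1 107 (93.9 to 138) and Cd9 103 (93.05 to 111). These 3 formed the top of the order. Epcam lay above Itgb1 in 5 of 6 libraries and Itgb1 above Cd9 in 3 of 6, so the order of Itgb1 and Cd9 was not settled. Itga6 came next at 55.3 (52.1 to 57.6), below Cd9 in all 6 libraries. A gap separated these 4 from Cd82 at 4.79 (3.68 to 6.50), Thy1 at 4.59 (4.07 to 6.41), Cdh1 at 3.50 (2.32 to 4.47) and Cxcr4 at 2.82 (2.42 to 3.16). Cd82 lay above Thy1 in 3 of 6 libraries, while Thy1 lay above Cdh1 in all 6. Shisa6 averaged 0.323 (0.0902 to 0.448) and Tspan8 0.290 (0.109 to 0.4998), with Shisa6 above Tspan8 in 3 of 6 libraries, and both lay below Cxcr4 in every library. With coding length in place of exon length, Cd9 changed places with Itgb1, Thy1 with Cd82, and Tspan8 with Shisa6.

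**Figure D1:**
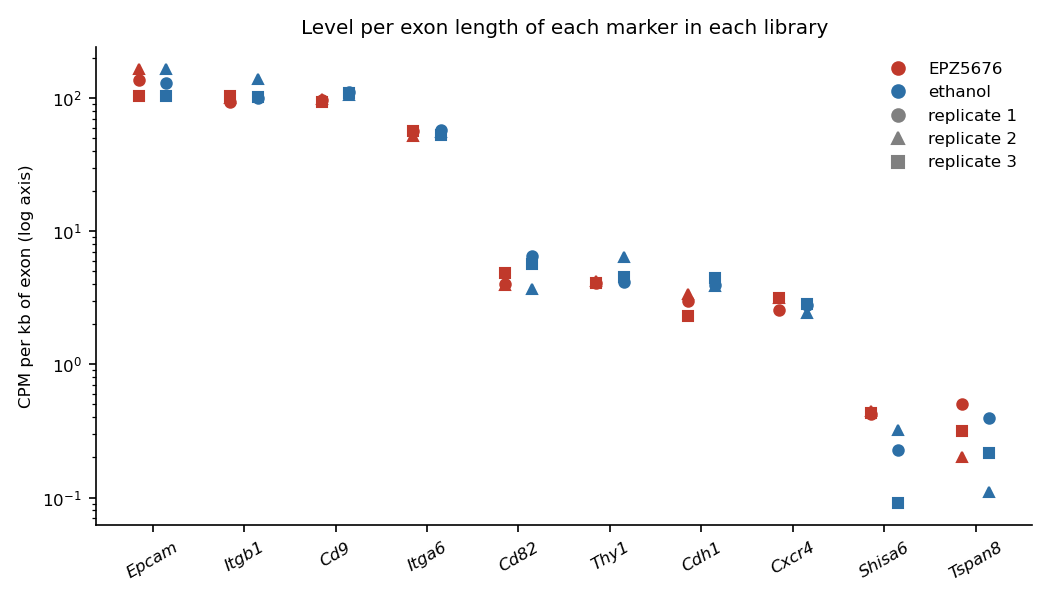
Level of each marker in CPM per kilobase of exon (log axis), with 1 point per library, EPZ5676 in red left of ethanol in blue and a symbol for each replicate number. Epcam, Itgb1, Cd9 and Itga6 lie between 52.1 and 166, and Shisa6 and Tspan8 lie at or below 0.4998 in every library.

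The stretches just upstream of 3 genes of the order are printed to show promoters of differing base composition, those of Epcam (the highest), Cd9 (high, with groups that did not overlap) and Tspan8 (low, next to Shisa6). Each gives the 250 bases before the RefSeq start on GRCm38.p6, 5′ to 3′ on the gene's strand, with CpG dinucleotides in capitals. They lie at chr17:87635729-87635978 on the plus strand (Epcam), chr6:125494761-125495010 on the minus strand (Cd9) and chr10:115817034-115817283 on the plus strand (Tspan8).
Epcam: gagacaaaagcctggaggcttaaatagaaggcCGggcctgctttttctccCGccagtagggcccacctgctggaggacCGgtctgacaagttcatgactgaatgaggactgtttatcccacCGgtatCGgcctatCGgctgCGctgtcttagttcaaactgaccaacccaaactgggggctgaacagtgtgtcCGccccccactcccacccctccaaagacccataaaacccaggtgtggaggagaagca
Cd9: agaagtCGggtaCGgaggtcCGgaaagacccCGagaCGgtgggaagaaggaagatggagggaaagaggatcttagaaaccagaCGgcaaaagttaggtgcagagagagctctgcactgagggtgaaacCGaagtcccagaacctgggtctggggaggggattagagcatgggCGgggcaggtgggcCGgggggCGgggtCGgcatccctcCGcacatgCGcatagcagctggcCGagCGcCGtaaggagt
Tspan8: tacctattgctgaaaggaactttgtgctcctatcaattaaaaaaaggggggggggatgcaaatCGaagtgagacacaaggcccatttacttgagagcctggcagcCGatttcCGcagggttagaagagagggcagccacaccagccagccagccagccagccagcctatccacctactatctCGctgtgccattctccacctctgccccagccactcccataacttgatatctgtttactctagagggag
The Cd9 stretch holds 16 CpG and 2 copies of the GC box GGGCGG (searched on both strands), the Epcam stretch 8 CpG and 1 copy, and the Tspan8 stretch 4 CpG and 0 copies. Stretches of the same length before the genes that passed the filter hold a median of 15 CpG, and 58.4% of them hold the GC box. Before all other genes in the RefSeq table the median is 3 CpG and 14.5% hold it. These either failed the filter or had no row under their symbol. Among all promoters in the RefSeq table, 38.1% have fewer CpG than Tspan8, 56.6% fewer than Epcam and 74.4% fewer than Cd9. For the other markers matched in that table, Itgb1 has 21 CpG, Cxcr4 19 and the 4 windows of Cd82 between 3 and 14. Itga6, Thy1, Cdh1 and Shisa6 were not among the 6 of 10 matched.

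The laminin receptor was measured at similar levels in both groups. Itga6, the alpha 6 chain, had 246, 227 and 248 CPM in EPZ5676 replicates 1 to 3 and 251, 242 and 232 CPM in ethanol replicates 1 to 3. The groups overlapped. The means were 241 ± 11.5 CPM under EPZ5676 and 242 ± 9.69 CPM under ethanol (SD, n = 3 each), so that the log2 fold change was -0.01 ± 0.07 (SE; edgeR adjusted p of 0.991). Itgb1, the beta 1 chain that pairs with many alpha chains, had 358, 384 and 399.7 CPM in EPZ5676 replicates 1 to 3 and 385, 527 and 389 CPM in ethanol replicates 1 to 3. Ethanol replicate 2 stood above all other libraries, and the remaining 5 lay close together. The means were 381 ± 21.1 CPM under EPZ5676 and 434 ± 81.1 CPM under ethanol (SD, n = 3 each), a log2 fold change of -0.19 ± 0.12 (edgeR adjusted p of 0.769). Without ethanol replicate 2 the log2 fold change was -0.03. That library also had the highest summed fibroblast markers, 2575 CPM, and Itgb1 is made by fibroblasts too; the part of those cells in the value was not tested. Per kilobase of exon, Itga6 stood to Itgb1 at 0.602, 0.517 and 0.543 in EPZ5676 replicates 1 to 3 and at 0.570, 0.402 and 0.522 in ethanol replicates 1 to 3. The ratio averaged 0.554 ± 0.0435 with EPZ5676 and 0.498 ± 0.0864 with ethanol (SD, n = 3 each). An exact 2-sided permutation test that ignored the replicate numbers gave a p of 0.5, where 3 against 3 cannot go below 0.1. Within each number the EPZ5676 library had the higher ratio, and this paired difference was not tested.

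**Figure D2:**
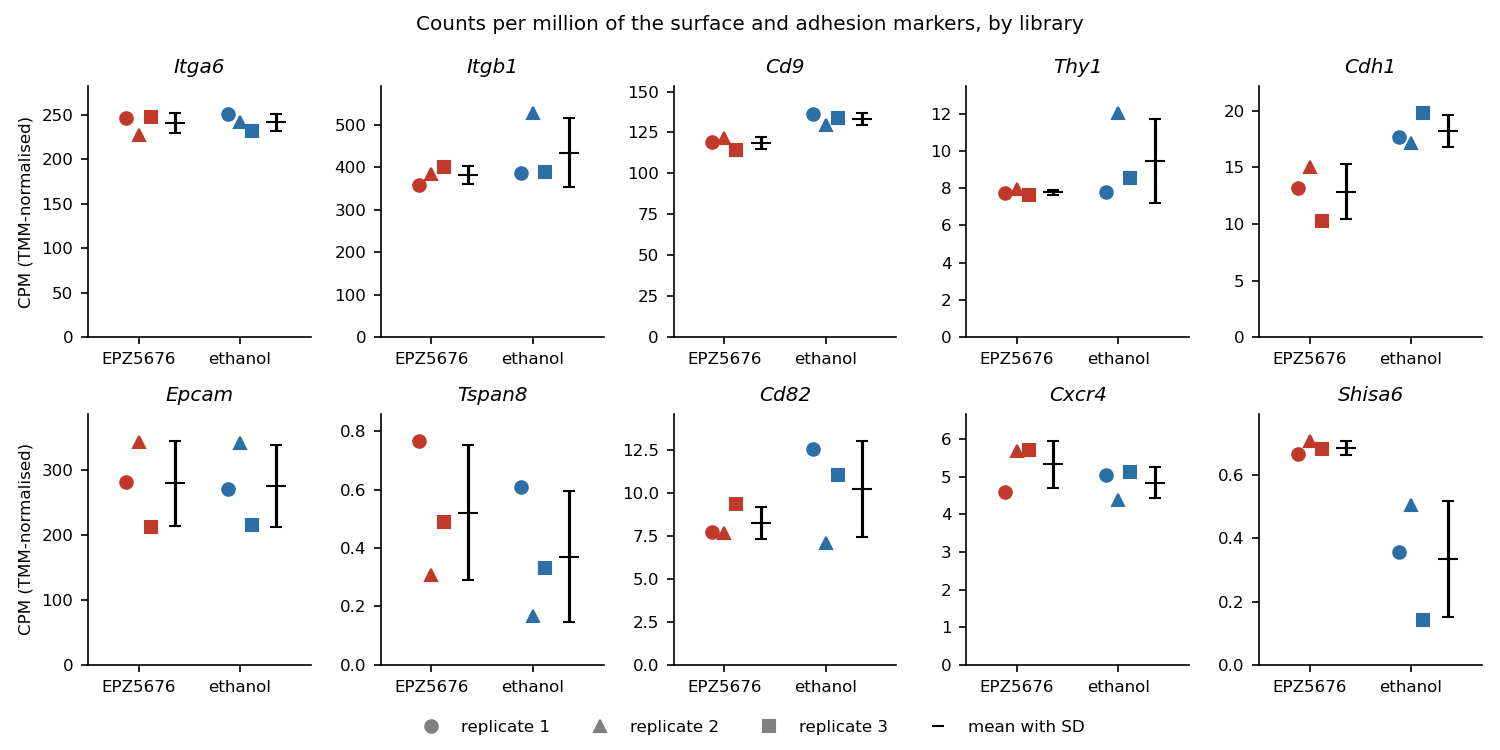
TMM-normalised CPM of the 10 markers in each library, EPZ5676 in red left of ethanol in blue, with a symbol for each replicate number and bars for the mean with SD (n = 3 each). The groups are apart for Cd9 and Cdh1, where EPZ5676 is lower, and for Shisa6, where it is higher; for Epcam the same-numbered libraries of both groups lie at nearly the same height.

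The other chains of the integrin family gave 1 call, in the paired fit. Of 17 alpha chain genes, 15 were tested, and 0 were called higher or lower without pairing. With the replicate number as a block, which compares each EPZ5676 library with the ethanol library of its number, Itga3 was called lower. In that fit 0.653% of all genes were called, 0.323% higher and 0.33% lower. Itga3, the alpha 3 chain of another laminin receptor, had 46.2, 58.5 and 36.9 CPM in EPZ5676 replicates 1 to 3 and 64.9, 87.4 and 51.9 CPM in ethanol replicates 1 to 3. The groups overlapped, but within each number the EPZ5676 library was lower, by log2 differences of -0.49, -0.58 and -0.49. With the block its log2 fold change was -0.52 ± 0.06 (edgeR adjusted p of 0.0257), and without the block -0.52 ± 0.21 (adjusted p of 0.659). When both replicate 1 libraries were left out, the blocked adjusted p was 0.404, and the pairing of numbers 1 and 3 on which the call rests is uncertain. Itga5, the alpha 5 chain of the fibronectin receptor, had 57.9 ± 12.8 CPM under EPZ5676 and 61.1 ± 35.6 CPM under ethanol (SD, n = 3 each), with 102 CPM in ethanol replicate 2, above all other libraries. Its log2 fold change was -0.07 ± 0.35 over all libraries and 0.51 without that one. Itgav, the alpha v chain, had a log2 fold change of -0.21 ± 0.19 and Itgb4, the partner of the alpha 6 chain in epithelia, one of 0.08 ± 0.27. Over the 15 tested alpha chains 12 log2 fold changes were negative and 3 positive, where 7683 of all 14855 genes tested were negative. Their median was -0.07, against a median of -0.01 over all genes tested. With libraries left out it ran from -0.21 to 0.031, the latter without ethanol replicate 2. For the beta chains, 7 of 8 were tested, 0 were called, and the median was 0.05.

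Laminin chains, the ligands of Itga6 with Itgb1, were represented among the transcripts. Of 11 laminin genes 9 were tested and 0 called, with a median log2 fold change of 0.07. Lamb1 and Lamc1, chains of most laminins, had 266 ± 31.0 and 160 ± 12.6 CPM under EPZ5676, and 253 ± 42.5 and 163 ± 16.6 CPM under ethanol (SD, n = 3 each). Lama5 had 110, 185 and 88.8 CPM in EPZ5676 replicates 1 to 3 and 93.9, 126 and 79.0 CPM in ethanol replicates 1 to 3. Each EPZ5676 library was above the ethanol library of its number, yet the groups overlapped and the log2 fold change of 0.37 ± 0.27 did not pass (edgeR adjusted p of 0.791, and 0.107 with the block), although DESeq2 with the block called it higher (adjusted p of 0.0372). Among 12 tested of 14 cytoplasmic partners that link integrins to actin, 0 were called, and the median was 0.01. Tln2 (talin 2), named after its values were seen because its groups did not overlap, had 106 ± 9.14 CPM under EPZ5676 and 92.5 ± 3.07 CPM under ethanol (SD, n = 3 each; edgeR adjusted p of 0.670).

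Cd9 was slightly lower with EPZ5676. It had 119, 122 and 114 CPM in EPZ5676 replicates 1 to 3 and 137, 129.5 and 134 CPM in ethanol replicates 1 to 3. Every EPZ5676 library lay below every ethanol library, and both groups were narrow. The means were 118 ± 3.72 CPM under EPZ5676 and 133 ± 3.55 CPM under ethanol (SD, n = 3 each), a ratio of 0.887. The log2 fold change was -0.17 ± 0.07, which missed the threshold (unadjusted p of 0.0352, edgeR adjusted p of 0.650, and 0.178 with the block). Cd82, a tetraspanin that restrains cell movement, had 7.72, 7.69 and 9.36 CPM in EPZ5676 replicates 1 to 3 and 12.6, 7.11 and 11.1 CPM in ethanol replicates 1 to 3. The EPZ5676 library was the lower one for numbers 1 and 3 and the higher one for number 2. Its log2 fold change was -0.32 ± 0.22 (edgeR adjusted p of 0.779). It was -0.52 without ethanol replicate 2 and -0.14 without ethanol replicate 1. Tspan8, used to sort mouse spermatogonia rich in stem cells, had 15, 17 and 10 counts in EPZ5676 replicates 1 to 3 and 12, 3 and 7 counts in ethanol replicates 1 to 3. As CPM these were 0.767, 0.308 and 0.487 with EPZ5676 and 0.610, 0.168 and 0.332 with ethanol, with overlapping groups and the same order of replicate numbers in both. The summed counts of 42 with EPZ5676 and 22 with ethanol gave a ratio per effective library size of 1.17, with an exact Poisson 95% interval of 0.686 to 2.07 that covers counting error only. The mean CPM, which weight libraries equally, were 0.521 ± 0.231 under EPZ5676 and 0.370 ± 0.224 under ethanol (SD, n = 3 each), a ratio of 1.41. Within the numbers 1 to 3 the log2 differences of Tspan8 were 0.30, 0.65 and 0.46. With no filter on low counts the edgeR adjusted p was 0.898, and 0.666 with the block.

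Tetraspanins as a family gave 0 calls among 26 tested of 31, with or without the block. The list counts the web's immunoglobulin-domain partners Igsf8 and Ptgfrn, which bind Cd9 and Cd81. Negative log2 fold changes numbered 19 and positive ones 7, where 7683 of all 14855 genes tested were negative. The median was -0.12. With libraries left out it ran from -0.15 to -0.017, the latter without ethanol replicate 2. Cd81, a relative of Cd9, had 57.6 ± 10.2 CPM under EPZ5676 and 56.2 ± 14.4 CPM under ethanol (SD, n = 3 each). Cd151, which binds the alpha 3 and alpha 6 integrin chains, had 94.4 ± 12.8 CPM under EPZ5676 and 104 ± 19.3 CPM under ethanol (SD, n = 3 each). Igsf8 and Ptgfrn had log2 fold changes of -0.11 ± 0.20 and -0.10 ± 0.07, and the Ptgfrn groups did not overlap. Of the family, 3 genes lay lower without overlap (Cd9, Ptgfrn and Tspan2) and 1 higher (Tspan6), where 7.64% and 7.22% of all genes did. Tspan2 and Tspan6, named after their values were seen, had log2 fold changes of -0.47 ± 0.16 and 0.39 ± 0.17 (edgeR adjusted p of 0.621 and 0.670).

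Cdh1 had the largest difference among the 8 markers above 1 CPM. E-cadherin forms the adherens junctions of epithelia and marks undifferentiated spermatogonia. It had 13.2, 15.1 and 10.3 CPM in EPZ5676 replicates 1 to 3 and 17.6, 17.1 and 19.8 CPM in ethanol replicates 1 to 3. All EPZ5676 libraries were below all ethanol libraries, with the widest gap in number 3 and the narrowest in number 2. The means were 12.8 ± 2.41 CPM under EPZ5676 and 18.2 ± 1.41 CPM under ethanol (SD, n = 3 each), a ratio of 0.706. Its log2 fold change was -0.50 ± 0.16, which missed the threshold (unadjusted p of 0.0140, edgeR adjusted p of 0.596, and 0.138 with the block). Leaving out both replicate 2 libraries gave -0.68, at an adjusted p of 0.140 when unpaired and 0.00778 when paired. In that blocked fit of 4 libraries Cd9 also passed, at -0.21 and an adjusted p of 0.0482, but the fit had 1 residual degree of freedom and called 795 of 14822 genes. Neither gene passed in the other blocked fits of 4 libraries. Without both replicate 1 libraries, Cdh1 was at -0.55 (edgeR adjusted p of 0.547) and Cd9 at -0.16 (0.698). Without both replicate 3 libraries, Cdh1 was at -0.29 (edgeR adjusted p of 0.226) and Cd9 at -0.14 (0.308).

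**Figure D3:**
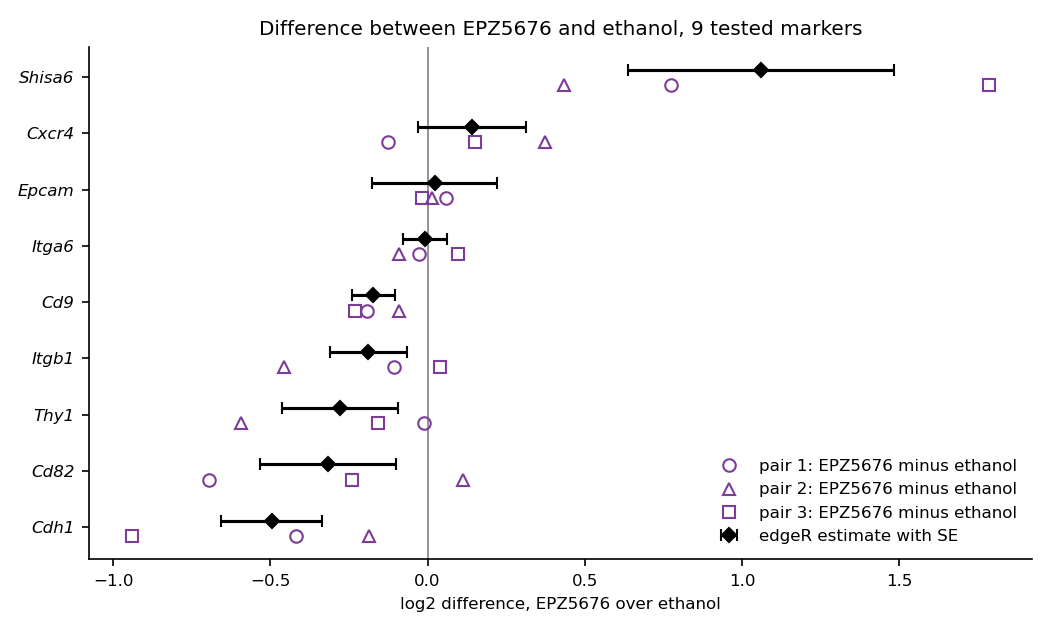
Log2 difference of EPZ5676 over ethanol for the 9 tested markers, with the edgeR estimate and its SE (black diamonds) and the difference within each replicate number (open symbols). All 3 numbers fall below 0 for Cdh1, Cd9 and Thy1 and above 0 for Shisa6; Itga6, Itgb1, Cd82, Epcam and Cxcr4 have both signs.

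In the RefSeq table the protein-coding genes beside Cdh1 on chromosome 8 are Cdh3 (P-cadherin) and Tango6. Cdh3 is named here after its values were seen, and no values are given for Tango6. Cdh3 had 14.2, 13.7 and 11.8 CPM in EPZ5676 replicates 1 to 3 and 20.1, 15.9 and 21.5 CPM in ethanol replicates 1 to 3, again without overlap. Within the numbers 1 to 3, the log2 differences were -0.50, -0.21 and -0.86 for Cdh3 and -0.42, -0.19 and -0.94 for Cdh1. Cdh1 and Cdh3 thus both had their widest difference in number 3 and their narrowest in number 2. For Cdh3 the log2 fold change was -0.53 ± 0.15 (edgeR adjusted p of 0.596, and 0.107 with the block), so it did not pass either. By the root mean square difference of centred log2 CPM over the 6 libraries, 0.132 for this pair, Cdh3 ranked 25 of 10686 genes in likeness to Cdh1. Since Cdh3 was named after these same values were seen, its rank is no support for a link between the genes.

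Among cadherins and catenins 11 of 12 were tested and 0 called, with a median log2 fold change of -0.06. Cdh2 (N-cadherin) had 20.7 ± 2.20 CPM under EPZ5676 and 17.3 ± 6.99 CPM under ethanol (SD, n = 3 each), with ethanol replicate 2 the highest library. The catenins that tie cadherins to actin differed little. Ctnnb1 (beta-catenin), also a cofactor of Wnt signalling, had 889, 855 and 872 CPM in EPZ5676 replicates 1 to 3 and 769.6, 791 and 745 CPM in ethanol replicates 1 to 3. Its groups did not overlap, with EPZ5676 higher, and the log2 fold change of 0.18 ± 0.06 did not pass (edgeR adjusted p of 0.596). Ctnna1 and Ctnnd1 had log2 fold changes of 0.00 ± 0.08 and -0.06 ± 0.07. Of 6 transcription factors known to repress Cdh1, all were tested and 0 called. Zeb1 and Snai1, named with Tcf3 after their values were seen, had log2 fold changes of -0.09 ± 0.12 and 0.05 ± 0.24. Tcf3 had 316 ± 84.3 CPM under EPZ5676 and 256 ± 9.85 CPM under ethanol (SD, n = 3 each), a log2 fold change of 0.30 ± 0.17 (edgeR adjusted p of 0.741).

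Epcam varied with the replicate number. It had 282, 343 and 213 CPM in EPZ5676 replicates 1 to 3 and 270.5, 340.4 and 215 CPM in ethanol replicates 1 to 3. Number 2 was highest and number 3 lowest in both groups. Within the numbers the log2 differences were 0.06, 0.01 and -0.02. Its means of 279 ± 65.4 CPM under EPZ5676 and 275 ± 62.8 CPM under ethanol (SD, n = 3 each) had a log2 fold change of 0.02 with an SE of 0.20 without the block and 0.05 with it (edgeR adjusted p of 0.989 and 0.876). No label says what the numbers stand for. Of 8 genes for proteins that bind, cut or shield Epcam, 7 were tested and 0 called, with a median log2 fold change of 0.06. Cldn7, a claudin bound by Epcam, was low in both groups, at 0.973 ± 0.0490 CPM under EPZ5676 and 0.742 ± 0.142 CPM under ethanol (SD, n = 3 each). Spint2, a protease inhibitor named after its values were seen, had 127 ± 6.59 CPM under EPZ5676 and 110.3 ± 4.63 CPM under ethanol without overlap (SD, n = 3 each; edgeR adjusted p of 0.645).

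Thy1 had 7.72, 7.95 and 7.65 CPM in EPZ5676 replicates 1 to 3 and 7.78, 12.04 and 8.54 CPM in ethanol replicates 1 to 3. Ethanol replicate 2 stood alone at the top, as for Itgb1, and ethanol replicate 1 lay within the EPZ5676 range. The means were 7.77 ± 0.155 CPM under EPZ5676 and 9.46 ± 2.27 CPM under ethanol (SD, n = 3 each), a log2 fold change of -0.28 ± 0.18 (edgeR adjusted p of 0.769). Without ethanol replicate 2 it was -0.07, and without both replicate 2 libraries -0.09. Thy1 is also made by fibroblasts, whose summed markers were 2575 CPM in ethanol replicate 2 and 1466 to 1972 CPM in the other 5 libraries; their part in the value was not tested. Of the 18 fibroblast markers 0 were called, with a median log2 fold change of -0.21.

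Cxcr4 had 4.60, 5.68 and 5.70 CPM in EPZ5676 replicates 1 to 3 and 5.03, 4.37 and 5.13 CPM in ethanol replicates 1 to 3. The groups overlapped, and the log2 fold change was 0.14 ± 0.17 (edgeR adjusted p of 0.888). It was 0.07 without ethanol replicate 2 and 0.23 without EPZ5676 replicate 1. Its ligand Cxcl12, which helps keep germline stem cells in their niche, had 22.2, 9.60 and 21.4 CPM in EPZ5676 replicates 1 to 3 and 17.8, 8.29 and 19.5 CPM in ethanol replicates 1 to 3. Number 2 was the lowest for Cxcl12 in both groups. Ackr3, the scavenging receptor of Cxcl12, had 0.934 ± 0.152 CPM under EPZ5676 and 0.851 ± 0.149 CPM under ethanol (SD, n = 3 each). All 7 genes of this axis were tested and 0 were called, with a median log2 fold change of 0.09.

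Shisa6 had the largest fold among the markers and among the lowest counts. It had 13, 39 and 14 counts in EPZ5676 replicates 1 to 3 and 7, 9 and 3 counts in ethanol replicates 1 to 3, which as CPM were 0.665, 0.708 and 0.682 with EPZ5676 and 0.356, 0.504 and 0.142 with ethanol. The EPZ5676 libraries were nearly equal and lay above all ethanol libraries, with ethanol replicate 2 the nearest. The log2 fold change was 1.06 ± 0.42, which missed the threshold (unadjusted p of 0.0354, edgeR adjusted p of 0.650, and 0.235 with the block). It was 0.68 without ethanol replicate 3 and 1.46 without ethanol replicate 2. Shisa6 passed the filter, set at 0.493 CPM in 3 libraries, only through the EPZ5676 group, so its p is no support for a difference. Summed counts of 66 with EPZ5676 and 19 with ethanol gave a ratio of 2.14, with an exact Poisson 95% interval of 1.27 to 3.77 for counting error only. EPZ5676 replicate 2, the deepest library, held 39 of the 66 counts. The interval leaves out variation between libraries and, like the p, is no support for a difference. Of 8 Shisa family genes 7 were tested and 0 called. Shisa5 and Shisa2, named after their values were seen, had log2 fold changes of 0.04 ± 0.18 and -0.02 ± 0.12.

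Other surface markers of spermatogonia, 9 genes that are not among the 10, were all tested, and 0 were called by edgeR with TMM scaling, with or without the block. Their median log2 fold change was -0.24, with 6 negative and 3 positive, where 7683 of all 14855 genes tested were negative. Gfra1, the GDNF co-receptor of undifferentiated spermatogonia, named after its values were seen, had 52.2 ± 7.66 CPM under EPZ5676 and 69.5 ± 3.30 CPM under ethanol without overlap (SD, n = 3 each). Its log2 fold change was -0.41 ± 0.12 (edgeR adjusted p of 0.596, and 0.0611 with the block). Kit, the receptor of differentiating spermatogonia, was also named after its values were seen; its groups overlapped, with a log2 fold change of -0.37 ± 0.13 (edgeR adjusted p of 0.625, and 0.0586 with the block). Other paired fits did call Gfra1 and Kit lower, at adjusted p of 0.00735 and 0.00511 by DESeq2 with the block and 0.0499 and 0.0468 by edgeR with library totals and the block. In the blocked edgeR fit without both replicate 1 libraries they were at 0.507 and 0.530. For the 9 tested markers of the 10 the median was -0.17.

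**Figure D4:**
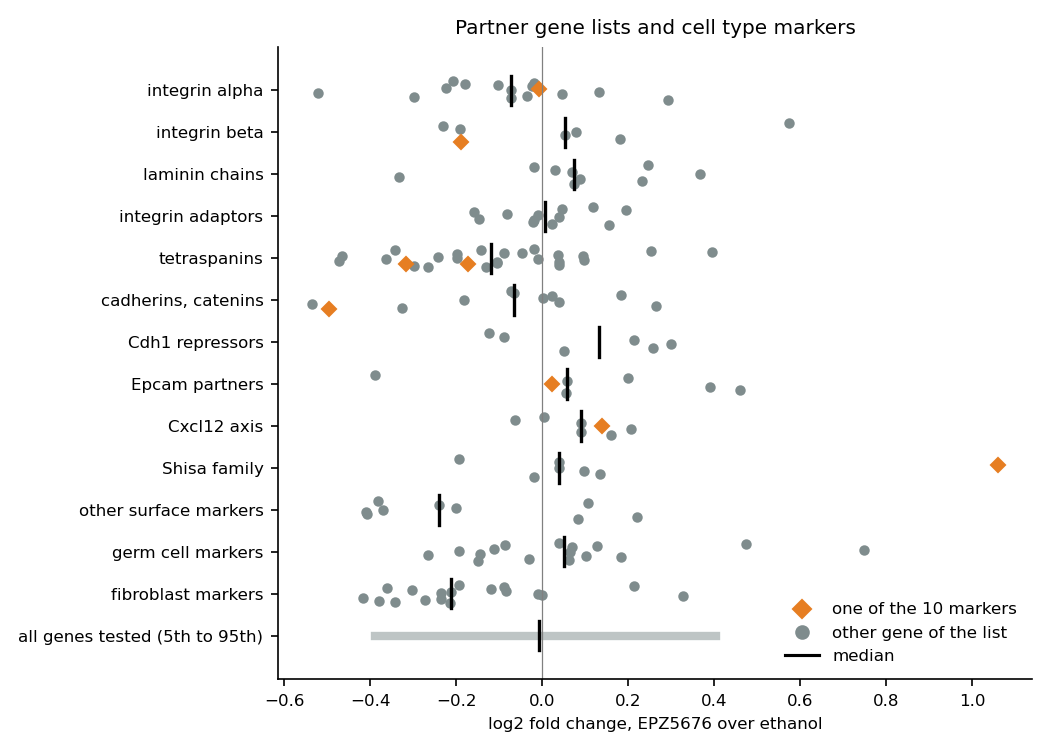
Log2 fold change of EPZ5676 over ethanol for each tested gene of the partner and cell type lists (grey points, with the tested ones of the 10 markers as orange diamonds), the list median (black lines) and, at the bottom, the 5th to 95th percentile of all genes tested. List medians lie between -0.24 and 0.13, and Shisa6 at 1.06 is the farthest of the markers from 0.

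The markers differed in how far they varied over the 6 libraries. In log2 CPM, the root mean square deviation from the gene's own mean was 0.05 for Itga6, 0.09 for Cd9, 0.14 for Cxcr4, 0.18 for Itgb1, 0.23 for Thy1, 0.28 for Epcam, 0.30 for Cd82 and 0.31 for Cdh1. Itgb1 and Thy1 shared a peak in ethanol replicate 2, Cd9 and Cdh1 both lay lower in all EPZ5676 libraries, Epcam peaked in both replicate 2 libraries, and Cd82 was lowest in ethanol replicate 2. The genes whose library pattern was most like a marker's, out of 10686 with a mean of at least 5 CPM, were Mapk8 and Zfp626 for Itga6 and Arhgap5 and Usp24 for Itgb1. They were Cat and Rpusd4 for Cd9, Cpeb4 and Zfp235 for Thy1, and Pdlim4 and Grap2 for Cdh1. For Epcam they were Fam83g and Dusp14, for Cd82 Plgrkt and Rasl11a, and for Cxcr4 Gnpda2 and Rad51d. The root mean square difference in log2 CPM ran from 0.01 for Mapk8 with Itga6 to 0.08 for Rasl11a with Cd82, and no marker was among the 2 nearest genes of another.

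**Figure D5:**
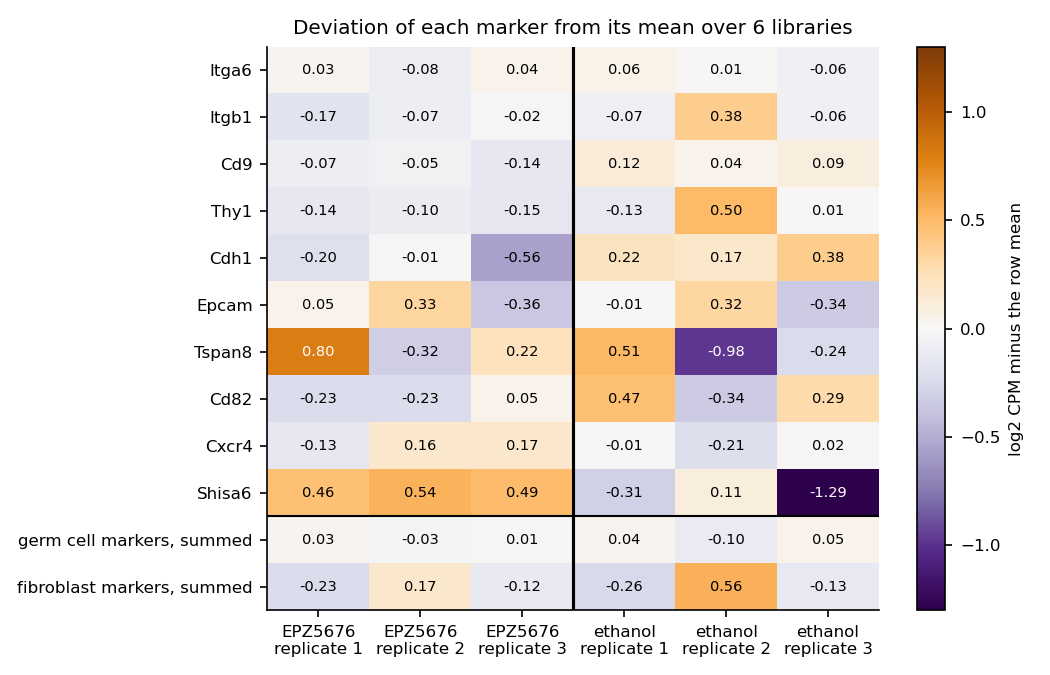
Log2 CPM of each marker in each library minus its mean over the 6 libraries, with EPZ5676 left and ethanol right of the line, above the same for the summed germ cell and fibroblast markers. Cdh1 and Cd9 are negative in all EPZ5676 libraries and positive in all ethanol libraries, Epcam is positive in both replicate 2 libraries, and Itgb1, Thy1 and the fibroblast sum are highest in ethanol replicate 2.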

How the data were processed

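The authors deposited whole-number counts per gene symbol for 6 libraries, and these counts were used as deposited. Per the submitters' processing notes, the tools were STAR, Bowtie, featureCounts and edgeR, and the build was mm9; roles, versions, annotation and strand settings were not given in the sources used here. Rows of repeat families were not used.

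Counts were analysed in R 4.3.3 with edgeR 4.0.16: filterByExpr by group, TMM scaling, the quasi-likelihood test (2-sided, EPZ5676 against ethanol) and Benjamini-Hochberg adjustment over 14855 genes with a threshold of 0.05. Tools run as alternatives were DESeq2 1.42.0 and limma-voom (limma 3.58.1). CPM use TMM-scaled library sizes; log2 CPM have a prior count of 2. Exon and coding lengths came from GENCODE M21 (GRCm38) and promoters from RefSeq (GRCm38.p6), by symbol. The tests were checked on simulated counts.

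Same-numbered libraries correlated at 0.411, 0.614 and 0.335 in their deviations from the group means, each above the bound of 0.1. Other combinations lay between -0.494 and 0.278. The main fit took no account of the numbers, since no label says what they stand for. Fits with the number as a block, which treat the numbers as pairs, were alternatives. Both crossed combinations of numbers 1 and 3 (0.278 and 0.149) exceeded the bound too; with replicate 2 apart in both groups, the check cannot settle pairs 1 and 3. No 2 libraries agreed within sampling noise (chi-square per degree of freedom of 3.64 or more).

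The markers and lists were chosen with earlier results of these data known. Named genes were the 10 markers, 20 fixed partners, called genes of each list (up to 3) and the 2 genes most like each marker of at least 5 CPM. Dazl, Ddx4 and Fshr were picked from the cell type lists outside these rules. Others are said to be named after their values were seen. Of the fixed partners, 1 is not reported here.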

Additional observations from a re-analysis of the deposited data

How the results depend on the processing

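Across all alternatives, 3 of 189 marker values passed, all 3 in blocked fits of 4 libraries: Cdh1 and Cd9 without both replicate 2 libraries, and Itgb1 (-0.28, edgeR adjusted p of 0.0453) without both replicate 3 libraries. Those fits called many other genes, 795 of 14822 without replicate 2 and 761 of 14912 without replicate 3. In the matching fits without replicate 1 and without replicate 2, Itgb1 had edgeR adjusted p of 0.700 and 0.784. Among the 189 marker values the sign turned in 10, all of Itga6 or Epcam. Among the genes of the marker and partner lists, the edgeR fit with TMM scaling and the replicate block called Itga3 alone. The count of called genes, 0 in the unpaired fit, was 50 with DESeq2 (22 higher and 28 lower), 97 with the replicate block, 293 with DESeq2 and the block, 193 with library totals and the block, 10 without both replicate 2 libraries, and 445 with the block and no filter on low counts, an alternative chosen after seeing the data; with libraries left out it ran from 0 to 795. Of the genes in the partner lists, 1 was called with the block, 4 with DESeq2 and the block (Itga3, Lama5, Gfra1 and Kit), 3 with library totals and the block (Itga3, Gfra1 and Kit), 5 with the block and no filter (these 3, Lama5 and Cdh3), and 0 to 11 with libraries left out. The blocked fits of all 6 libraries tested 14855 genes, or 20766 with no filter, and the edgeR fit with TMM scaling called 0.653% of its genes. The tested genes of the overlapping partner lists were not totalled. Their calls therefore cannot be read as more or fewer than the share of all genes.

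Log2 fold changes with the other sign were, for Itga6, 0.00317 without a filter, 0.035 without both replicate 2 libraries and 0.00276 with the block and no filter. For Itga5 they were 0.10 with limma-voom, 0.024 with the block, 0.045 with DESeq2 and the block, 0.013 with library totals and the block, 0.36 without both replicate 2 libraries and 0.035 with the block and no filter. Without both replicate 2 libraries Itgb4 was at -0.00992, Lamc1 at 0.036, Ackr3 at -0.10 and the tetraspanin median at -0.078. Ctnna1 was at -0.010 with library totals, with or without the block, and at -0.000589 with a filter of at least 1 CPM. That filter put the median of the Cdh1 repressors at 0.049, and limma-voom that of the Epcam partners at 0.076. The cause of these shifts was not tested.

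With libraries left out, log2 fold changes ran from -0.058 to 0.036 for Itga6, -0.28 to -0.027 for Itgb1, -0.21 to -0.14 for Cd9, -0.68 to -0.29 for Cdh1 and -0.15 to 0.20 for Epcam, and from -0.40 to -0.073 for Thy1, -0.52 to -0.065 for Cd82, 0.019 to 0.27 for Cxcr4, 0.66 to 1.46 for Shisa6 and 0.012 to 0.93 for Tspan8. They ran from -0.32 to 0.51 for Itga5, -0.13 to 0.28 for Itgb4, -0.022 to 0.21 for Lamb1, -0.094 to 0.048 for Lamc1, -0.00172 to 0.57 for Lama5, -0.11 to 0.27 for Cd81, -0.24 to 0.027 for Cd151, -0.31 to 0.10 for Igsf8, -0.041 to 0.058 for Ctnna1, -0.10 to 0.52 for Cxcl12 and -0.10 to 0.38 for Ackr3. List medians ran from -0.21 to 0.031 for integrin alpha chains, -0.033 to 0.068 for integrin adaptors, -0.15 to -0.017 for tetraspanins, -0.20 to 0.011 for cadherins and catenins, 0.00512 to 0.31 for the Cdh1 repressors, -0.022 to 0.17 for the Epcam partners and -0.30 to -0.15 for other surface markers. Low counts limit Shisa6 and Tspan8, where counting error alone spans a wide range.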
